A study of Mus musculus with 12 samples.

Results

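The genes described here encode the nuclear subunits of mitochondrial complex I, measured in the brainstem (medulla and pons) of neonatal mice. They were chosen by name, as every row of the count table whose symbol is Nduf followed by A, B, C, S, V or AB and a number. The rule found 37 genes of 55418 in the table. All mice were outbred CFW mice killed at P15, an age of 15 postnatal days. The 6 morphine mice had received 15 mg/kg morphine by subcutaneous injection 2 times a day from P1 to P14, and the 6 saline mice had received saline on the same days. Tissue was taken 16 h after the last injection, a time chosen to fall in withdrawal, and each library came from 1 mouse. The 4 groups of 3 mice were saline females (replicates 4 to 6), morphine females (1 to 3), saline males (1 to 3) and morphine males (4 to 6). The dam of each mouse was not given by the labels, so litter was not modelled, and the p-values measure the spread between these mice.

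Complex I, or NADH:ubiquinone oxidoreductase, is the entry point of the respiratory chain. It passes electrons from NADH along a matrix arm of flavin and iron-sulfur subunits to ubiquinone, and it pumps protons through a membrane arm built around subunits encoded by mitochondrial DNA. The core subunits carry out the chemistry, and the accessory or supernumerary subunits surround them and are needed for assembly and stability. Neurons depend heavily on this complex for ATP, and brainstem nuclei are among the regions that degenerate when subunits such as NDUFS4 are lost.

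Of the 37 genes, 7 encode the nuclear core subunits, 29 encode accessory subunits and 1, Ndufa4, encodes a protein that is now assigned to complex IV although it keeps its complex I name. By position, 16 belong to the matrix arm, 19 to the membrane arm and 1, Ndufab1, the acyl carrier protein, to both arms. Ndufb1-ps, the mouse symbol for a further subunit, is not matched by the rule and was read at 57.7 to 93.9 CPM, that is counts scaled to a common library size. All 37 genes passed the low-count filter in every comparison. Together they took between 0.244% and 0.353% of the counts of a library.

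The libraries held between 27850565 and 48097947 counts, and a single gene of the family had between 53 and 13994 counts in a library. Brainstem markers were present in every library, with Slc6a5, the neuronal glycine transporter, at 468 to 636 CPM and Tph2, the enzyme of serotonin synthesis in neurons, at 19.7 to 41.9 CPM. The labels' extraction text speaks of spinal cord, but the summed level of 3 lumbar Hox genes was at most 0.0869 CPM. The library labelled morphine male 6 went partly against its label. It held Xist, a transcript of female cells, at 380 CPM, and the Y-linked gene Ddx3y at 12.8 CPM, against 115 to 199 CPM in the other 5 males. The library of saline male 3 stood apart from saline males 1 and 2 in base composition, as described below. Counts of called genes are given with and without these libraries.

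Levels differed widely between the subunits. On the scale of CPM per kilobase of the principal transcript, averaged over the 12 mice, the median gene of the family stood at 73.8. The highest levels were those of Ndufa4, at 491 CPM per kilobase, and Ndufa3, a small membrane-arm subunit, at 159.9 CPM per kilobase. The lowest were those of Ndufb4, at 3.76 CPM per kilobase, and Ndufb2, at 6.25 CPM per kilobase. Both low values are uncertain as levels. A stretch of 390 bases of Ndufb4 is 100% identical to the processed pseudogene Ndufb4c, so reads from it have more than 1 place to align, and only 1490 counts in all 12 libraries were given to Ndufb4 and 2 to Ndufb4c. The principal transcript of Ndufb2 in the annotation is 4371 bases long, against a median of 908 bases over the family.

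Among the nuclear core subunits, which all sit in the matrix arm, levels per kilobase are given for 6. Ndufv2, an iron-sulfur subunit next to the flavin, stood highest of these, at 116.1 CPM per kilobase, and Ndufs7, which carries the last iron-sulfur cluster before ubiquinone, lowest, at 23.1 CPM per kilobase. Between them were Ndufs1, the largest iron-sulfur subunit, at 98.3, Ndufs3 at 77.4, the flavin-binding subunit Ndufv1 at 75.1 and the iron-sulfur subunit Ndufs8 at 49.4 CPM per kilobase. Ndufs3 and Ndufv1 lay closer to each other than the spread between mice, since Ndufv1 alone ranged from 68.9 to 207.7 CPM.

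The spread between mice was itself uneven. The ratio of the highest to the lowest of the 12 mice was under 2-fold for 20 of the 37 genes and over 5-fold for 6. The steadiest were Ndufa9, at 142.7 to 182.7 CPM (1.28-fold), and Ndufa6, at 50.2 to 64.6 CPM (1.29-fold). The most variable was Ndufs5, a small protein of the intermembrane-space face, at 1.57 to 35.6 CPM (22.7-fold). It was followed by Ndufs7 (10.1-fold), the intermembrane-space subunit Ndufb7 (9.35-fold), Ndufa13, also known as GRIM19 (7.27-fold), Ndufa11 (5.25-fold) and Ndufa2 (5.14-fold).

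The spread tended to be wider in genes with a high share of G and C in the transcript, though not in all of them: Ndufa6, at 53.6% GC, was among the steadiest, and Ndufs5, at 49.0% GC, was the most variable. GC content ran from 42.0% in Ndufv2 to 60.4% in Ndufa13, around a median of 51.7%. The 19 genes at or above that median had a median fold range of 2.90, and the 18 below it had one of 1.66, against 1.93 over all genes tested. As a description over the 37 genes, the log2 fold range correlated with GC content at r = 0.54. These points share the same 12 libraries.

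The pattern was strongest in the 3 saline males. Ndufb7 was read at 56.5 and 59.7 CPM in saline males 1 and 2 and at 6.38 CPM in saline male 3. Ndufs7 was read at 53.8 and 66.3 CPM in saline males 1 and 2 and at 6.60 CPM in saline male 3. Ndufa13 was read at 114.7 and 117.0 CPM in saline males 1 and 2 and at 16.1 CPM in saline male 3. For all of these genes saline males 1 and 2 were the highest of the 12 mice and saline male 3 the lowest, so that the group's spread covered every other mouse.

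**Figure D1:**
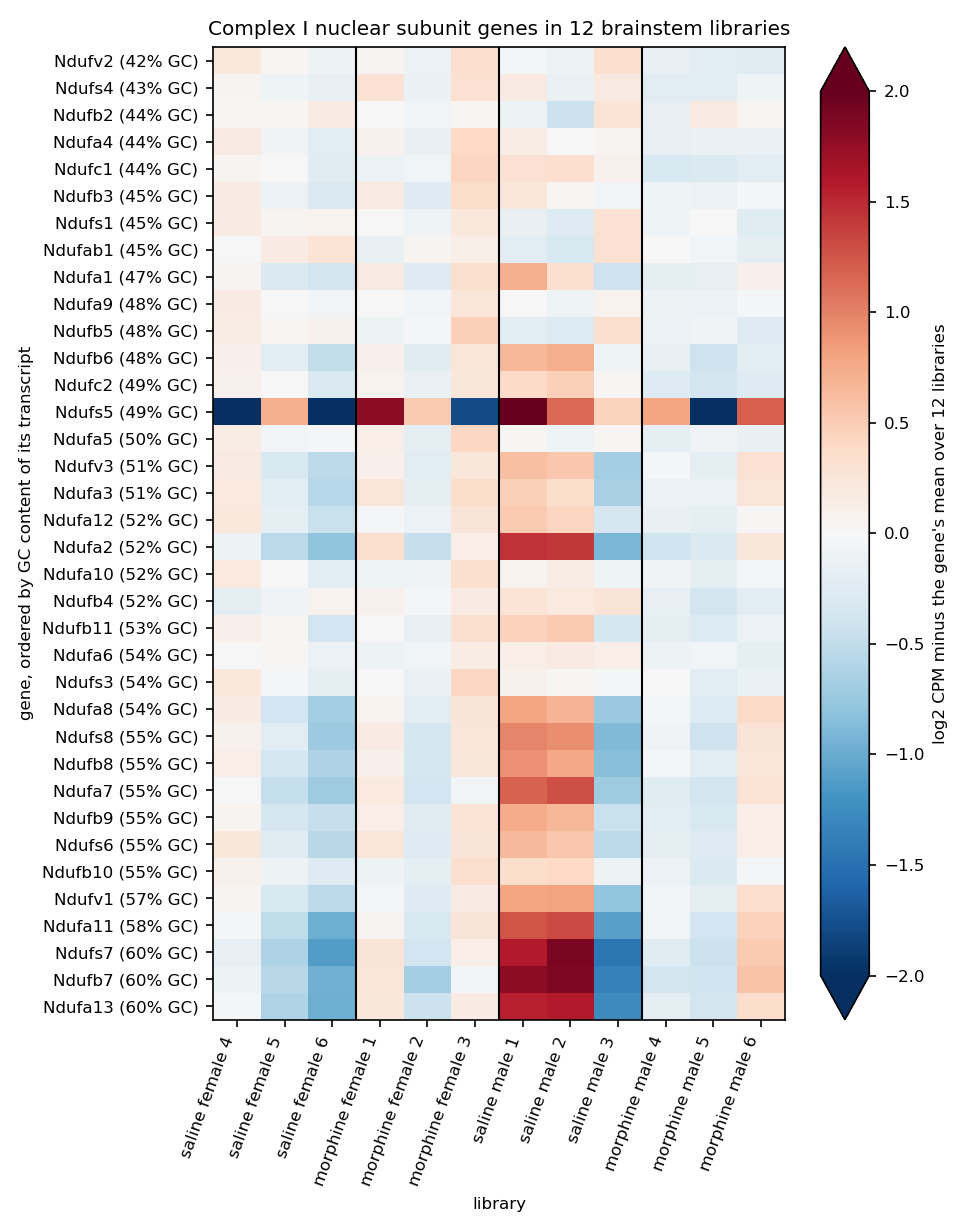
Heat map of 36 of the genes (rows, ordered from the lowest to the highest GC content of the transcript) in 12 libraries (columns, by group), coloured by log2 CPM minus the gene's mean over the 12 libraries, with the colour scale cut off at 2 either way. GC-rich genes are high in saline males 1 and 2 and low in saline male 3, and Ndufs5 is low in 4 libraries of 3 groups.

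The same tilt ran through the whole transcriptome. Over the 37 genes, the deviation of a gene from its own mean correlated with GC content at r = 0.63 in saline male 1, 0.76 in saline male 2 and -0.80 in saline male 3. Over all 19027 genes tested the same values were 0.58, 0.68 and -0.67. The median deviation of the 19 GC-rich subunit genes was 0.79, 0.67 and -0.70 on the log2 scale in these libraries. That of all genes in the same GC range was 0.34, 0.41 and -0.45. Morphine male 6 leaned the same way as saline males 1 and 2, with r = 0.53 over the 37 genes and 0.47 over all genes. Saline females 5 and 6 and morphine female 2 leaned the same way as saline male 3. Over the 37 genes their r was -0.62, -0.48 and -0.53, and over all genes it was -0.32, -0.50 and -0.26. In the remaining libraries r over the 37 genes lay between -0.15 and 0.02. The part of GC content in the comparisons below was not tested beyond the fits with GC and length offsets that are given beside them.

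**Figure D2:**
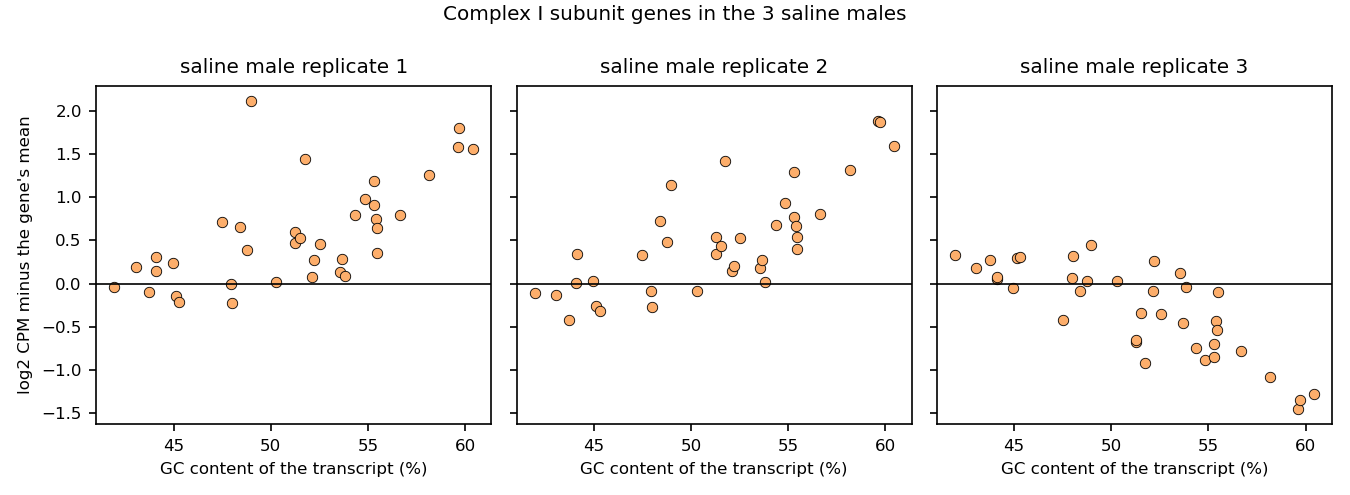
Deviation of each of the 37 genes from its mean log2 CPM over 12 libraries (vertical axis) against the GC content of its transcript in percent (horizontal axis), 1 panel for each saline male. The points rise with GC content in saline males 1 and 2 (r = 0.63 and 0.76) and fall in saline male 3 (r = -0.80).

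Ratios between subunits of the same arm moved from mouse to mouse. The ratio of Ndufs7 to Ndufs1 CPM was 0.229 and 0.306 in saline males 1 and 2 and 0.0206 in saline male 3, and it was 0.0304 to 0.118 in the other 9 mice. The ratio of Ndufv1 to Ndufv2, neighbours at the NADH end of the matrix arm, was 1.08 and 1.14 in saline males 1 and 2, 0.280 in saline male 3 and 0.455 to 0.903 elsewhere.

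Ndufs5 varied in a different way. Its level fell into separate bands that did not follow treatment or sex. It was read at 1.57 to 2.40 CPM in 4 mice, namely saline females 4 and 6, morphine female 3 and morphine male 5, and at 11.2 to 35.6 CPM in the other 8. A stretch of 319 bases of Ndufs5 is 99.4% identical to the processed pseudogene BC002163, which drew 4430 counts against 5549 for Ndufs5 over the 12 libraries.

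Counts at the pseudogene mirrored those at Ndufs5. In the 4 mice with low Ndufs5, BC002163 was read at 16.2 to 28.0 CPM and Ndufs5 took 7.84% to 8.81% of the counts of the pair. In saline male 1 and morphine female 1, BC002163 was read at 0.297 and 0.0308 CPM and Ndufs5 took 99.2% and 99.9% of the pair. In 5 other mice the share of Ndufs5 was 59.5% to 62.9%, and morphine male 6 put 73.0% on Ndufs5. The sum of both ranged from 17.8 to 35.9 CPM, which is 2.02-fold against 22.7-fold for Ndufs5 alone. The CFW stock is outbred, and whether alleles of either copy differ between these mice was not tested.

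**Figure D3:**
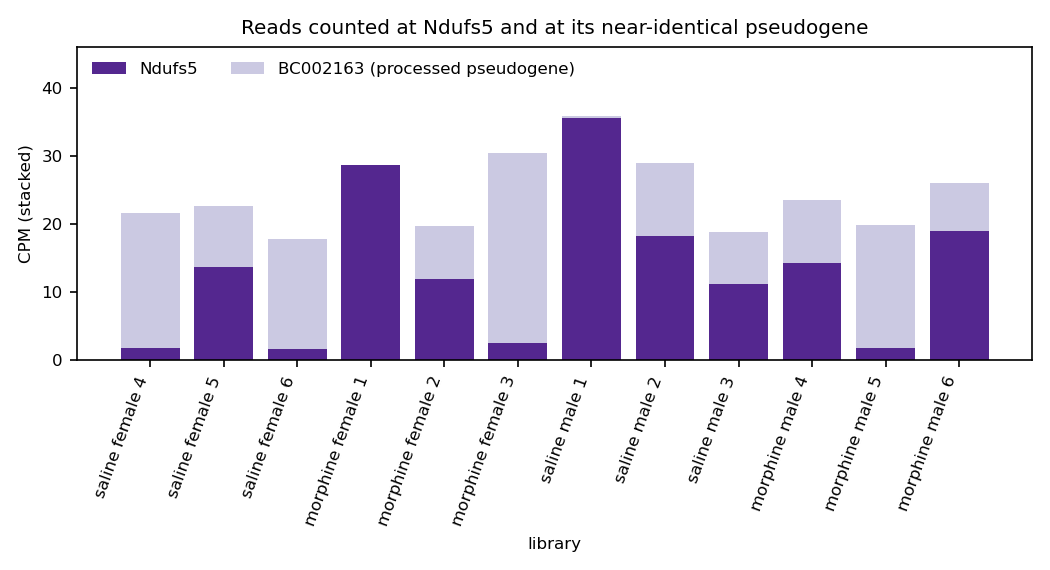
Stacked bars of CPM counted at Ndufs5 (dark) and at its near-identical processed pseudogene BC002163 (light) in each of the 12 libraries, ordered by group. The split between both differs from 7.84% to 99.9% on Ndufs5, and the height of the whole bar stays between 17.8 and 35.9 CPM.

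With all mice, Ndufs5 passed the thresholds in none of the 6 comparisons, either alone or with the counts of both copies added. In morphine against saline females its log2 fold change was 1.35 (SE 0.89) for Ndufs5 alone, and 0.34 (SE 0.16) for the sum. Transcripts of other subunit genes also match pseudogenes, though a match is not always a copy of the gene. Transcripts of 23 of the 37 genes match an annotated pseudogene over at least 100 bases at 90% identity or more. For 5 of these, a matched pseudogene drew 1% or more of the counts of the gene. Among them is Ndufa12, whose copy Gm15920 is 99.5% identical over 402 bases and drew 20.3% as many counts. Ndufc1 is another, through 3 short matches of 119 to 159 bases at 90.5% to 93.1% identity. These are 3000002C10Rik, Olfr1372-ps1 and, on the opposite strand, Ccnb2-ps. They drew 5.51% to 6.71% as many counts each. By their names they are not copies of Ndufc1, and whether they share its reads was not tested.

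Morphine and saline were compared in males to ask how repeated neonatal morphine and the withdrawal that follows altered the male brainstem. A gene was called, by the thresholds of the study, at an unadjusted p under 0.05 and a log2 fold change beyond 0.26 in either direction. The test was edgeR's quasi-likelihood test. In males, 5 of the 37 genes were called lower and none higher. Over all 18166 genes tested, 1.07% were called lower. The 5 genes were Ndufc2, Ndufc1, Ndufb6 and Ndufb4, all accessory subunits of the membrane arm, and Ndufa6, a subunit of the matrix arm that anchors an acyl carrier protein. No gene of the family, and none of all genes tested, had an adjusted p under 0.05, and each of the 5 had an adjusted p of 1.00 over all genes.

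Ndufc2 was read at 74.5, 79.5 and 58.0 CPM in saline males and at 47.8, 44.3 and 47.7 CPM in morphine males. Its log2 fold change was -0.62 (SE 0.15). In females it was read at 60.1, 57.4 and 46.7 CPM after saline and at 60.0, 51.7 and 66.4 CPM after morphine. Every morphine male thus lay below every saline male, while the female groups overlapped.

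Ndufc1, which sits beside Ndufc2 in the membrane arm, was read at 52.6, 53.8 and 45.0 CPM in saline males and at 34.1, 34.9 and 36.9 CPM in morphine males. The change was -0.54 (SE 0.14). In females the values were 44.3, 43.0 and 36.0 CPM after saline and 39.2, 41.2 and 57.6 CPM after morphine. Here too the male groups did not overlap, and the female groups did.

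Ndufb6 was read at 51.5, 53.8 and 30.8 CPM in saline males and at 29.4, 24.6 and 28.1 CPM in morphine males, a change of -0.75 (SE 0.23). Saline male 3, at 30.8 CPM, was close to the highest morphine male. Its exons share 257 bases with Smim27 on the opposite strand, and whether counting used strand is not given in the sources used here.

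Ndufb4 was read at 4.36, 4.15 and 4.33 CPM in saline males and at 3.23, 2.80 and 3.10 CPM in morphine males, a change of -0.52 (SE 0.18). These values rest on 85 to 194 counts in a library. Ndufa6 was read at 62.4, 64.6 and 62.0 CPM in saline males and at 52.9, 54.7 and 50.2 CPM in morphine males, a change of -0.29 (SE 0.12). For both genes saline male 3 lay with the other saline males.

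**Figure D4:**
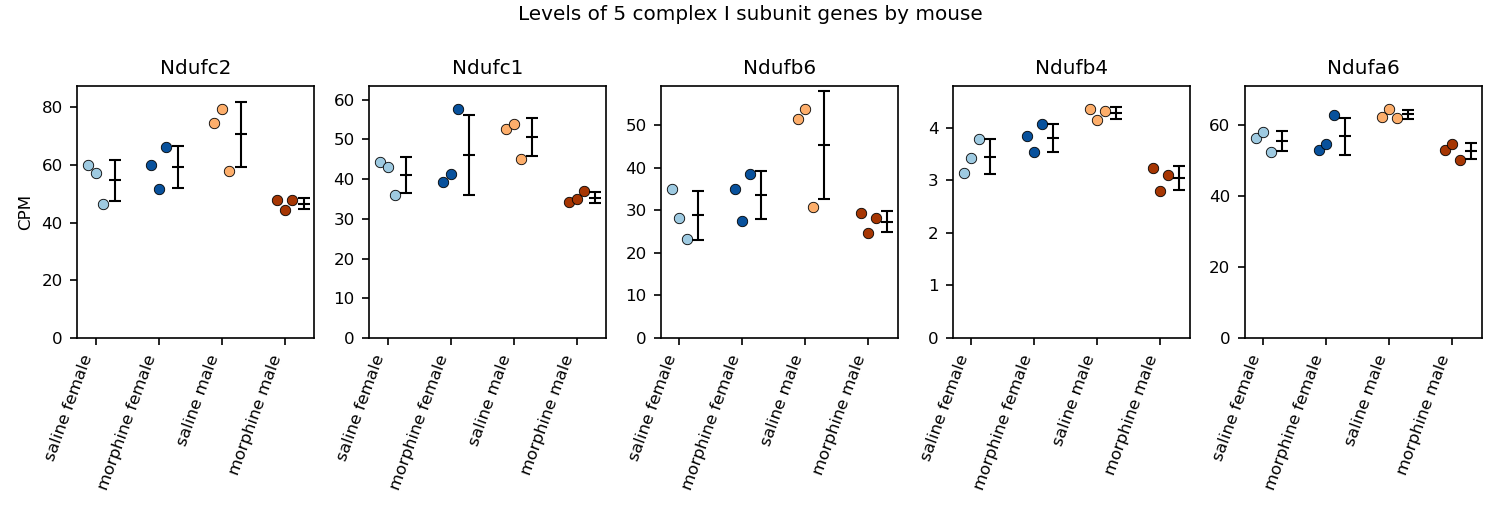
CPM of Ndufc2, Ndufc1, Ndufb6, Ndufb4 and Ndufa6 in each mouse (points) of the 4 groups, with the mean and SD of each group of 3 beside them (bars), each panel on its own scale from 0. In every panel the 3 morphine males lie below the 3 saline males, and the female groups overlap.

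Groups did not overlap for 7 of the 37 genes in males, the 5 above and also Ndufa4 and Ndufv2, all lower after morphine, against 3.35% of all genes tested. Ndufa4 was read at 328.2, 299.0 and 308.5 CPM in saline males and at 265.9, 271.0 and 272.5 CPM in morphine males, with a log2 fold change of -0.23 (SE 0.11). Ndufv2 changed by -0.31 (SE 0.15). With 3 mice against 3, groups that do not overlap are the most extreme order the design allows.

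Promoter sequence of the 5 called genes is shown here because these genes were lower together in morphine males. Each line gives the 250 bases before the gene's start in RefSeq, build GRCm38.p6, 5′ to 3′ on the strand of the gene. Capitals mark matches, on either strand, to the motifs searched. GCATGCGC is 1 form of the core of the nuclear respiratory factor 1 motif, and this factor activates many genes of the respiratory chain. Only the exact letters given here were searched, so other forms of a motif are neither marked nor counted. CCGGAAG is bound by ETS factors, which include the respiratory gene activator GABP. AAGATGGC is the YY1 motif that is common near start sites. GGGCGG is the motif of SP factors, which bind many promoters rich in G and C. TATAAA is the TATA box of the core promoter. The windows are chr7:97399753-97400002 on the plus strand for Ndufc2, and on the minus strand chr3:51408956-51409205 for Ndufc1, chr4:40279422-40279671 for Ndufb6, chr16:37654369-37654618 for Ndufb4 and chr15:82354292-82354541 for Ndufa6.
Ndufc2: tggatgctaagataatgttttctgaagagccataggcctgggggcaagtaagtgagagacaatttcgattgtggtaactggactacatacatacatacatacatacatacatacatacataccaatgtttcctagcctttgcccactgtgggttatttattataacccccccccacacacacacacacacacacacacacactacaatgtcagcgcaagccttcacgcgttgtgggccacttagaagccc
Ndufc1: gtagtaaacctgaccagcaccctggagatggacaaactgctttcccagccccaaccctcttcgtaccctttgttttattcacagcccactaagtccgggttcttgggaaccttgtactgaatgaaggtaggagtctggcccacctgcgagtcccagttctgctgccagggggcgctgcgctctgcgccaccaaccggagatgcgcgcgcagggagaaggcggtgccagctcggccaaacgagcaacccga
Ndufb6: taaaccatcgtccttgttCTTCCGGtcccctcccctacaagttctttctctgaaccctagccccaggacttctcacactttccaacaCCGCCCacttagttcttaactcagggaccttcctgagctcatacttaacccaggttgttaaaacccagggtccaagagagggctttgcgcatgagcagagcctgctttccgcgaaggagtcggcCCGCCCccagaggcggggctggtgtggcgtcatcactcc
Ndufb4: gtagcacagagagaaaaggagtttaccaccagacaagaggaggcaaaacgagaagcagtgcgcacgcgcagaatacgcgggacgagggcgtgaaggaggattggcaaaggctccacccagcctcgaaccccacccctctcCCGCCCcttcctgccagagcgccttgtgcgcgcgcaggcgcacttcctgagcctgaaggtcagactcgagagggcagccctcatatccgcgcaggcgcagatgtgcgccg
Ndufa6: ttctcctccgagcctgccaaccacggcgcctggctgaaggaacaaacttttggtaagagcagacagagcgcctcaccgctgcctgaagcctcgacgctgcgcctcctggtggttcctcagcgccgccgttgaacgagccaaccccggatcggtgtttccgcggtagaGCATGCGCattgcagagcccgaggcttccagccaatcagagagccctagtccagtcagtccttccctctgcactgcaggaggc

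The 5 windows held none of the searched letters in common. Ndufa6 held GCATGCGC, Ndufb6 held 1 ETS and 2 SP motifs, Ndufb4 held 1 SP motif, and the windows of Ndufc1 and Ndufc2 held none of the letters searched. The window of Ndufc2 was 45.2% G and C, against a median of 57.6% over the 33 genes of the family with a promoter entry and 52.4% over all 27025 genes with one. Ndufa2, Ndufb9 and Ndufs1 were among those without an entry.

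Over the 33 genes, 3 (9.09%) held GCATGCGC, namely Ndufa6, Ndufa8 and Ndufa11, against 2.56% of all promoters. The ETS motif was in 3 (9.09%) against 7.83%, the SP motif in 14 (42.4%) against 35.4%, TATAAA in 4 (12.1%) against 14.3%, and AAGATGGC in 0 against 1.83%. The shares of these exact letters were thus of similar size in the family and in all promoters except for GCATGCGC, where 3 genes make the difference.

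Most of the other subunit genes were also lower in morphine males, without passing the test. Of the 37 log2 fold changes, 36 were below 0, where 62.4% of all genes tested were, and the median was -0.38 against -0.06 for all genes. The 16 matrix-arm genes had a median of -0.30, the 19 membrane-arm genes one of -0.48 and the 7 core genes one of -0.31. All genes in the GC range of the 19 GC-rich subunit genes had a median of -0.15, and those 19 genes had one of -0.48. The single gene above 0 was Ndufb2, at 0.05.

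The largest differences in males were not called, and in each of them saline male 3 lay below all 3 morphine males. They were those of Ndufb7 (-1.34, SE 0.74), Ndufs7 (-1.23, SE 0.73) and Ndufa13 (-1.14, SE 0.65). Morphine males were read at 12.6, 12.4 and 24.1 CPM for Ndufb7 and at 15.2, 13.4 and 26.0 CPM for Ndufs7. These values fall between those of saline males 1 and 2 and that of saline male 3. Among the other core genes the changes were -0.63 (SE 0.46) for Ndufs8, -0.41 (SE 0.40) for Ndufv1, -0.16 (SE 0.12) for Ndufs3 and -0.12 (SE 0.17) for Ndufs1.

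Saline male 3 decided the number of calls. Without that library 23 of the 37 genes were called lower, 18 of them with an adjusted p under 0.05, and the median was -0.57. In the same fit 18.8% of all genes tested were called lower, and 2141 of 18652 genes had an adjusted p under 0.05 in either direction. Without saline male 3 and with offsets for GC content and length, 24 were called lower, beside 11.3% of all genes. Of these, 21 had an adjusted p under 0.05, as did 1696 of all 18652 genes in either direction. Without both saline male 3 and morphine male 6, 25 were called lower beside 24.6% of all genes. The last 2 settings were chosen after seeing the data. All 3 fits without saline male 3 rest on only 2 saline males. Their p-values measure a spread from which the library that stood apart was removed. With all 6 males and the GC and length offsets, 8 were called lower, in a fit that called 6.91% of all genes in either direction against 2.99% without offsets. Without the library labelled morphine male 6 the count was 3 (2.47% of all genes called in either direction), without morphine male 5 it was 2 (1.61%), without morphine male 4 it was 3 (1.36%) and without saline male 1 it was 3 (1.86%). Most calls over all genes in these fits were higher, for example 327 of 462 without the library labelled morphine male 6.

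Ndufc2 and Ndufc1 were the genes least tied to this choice. Both were called lower in males under all 11 alternative settings and in all 6 fits that left out 1 mouse, with log2 fold changes from -0.76 to -0.50 for Ndufc2 and from -0.76 to -0.42 for Ndufc1. Ndufb6 was called under all 11 settings and in 5 of the 6 fits. Ndufb4 was called under 8 settings and in 2 fits, and Ndufa6 under 3 settings and in 1 fit.

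**Figure D5:**
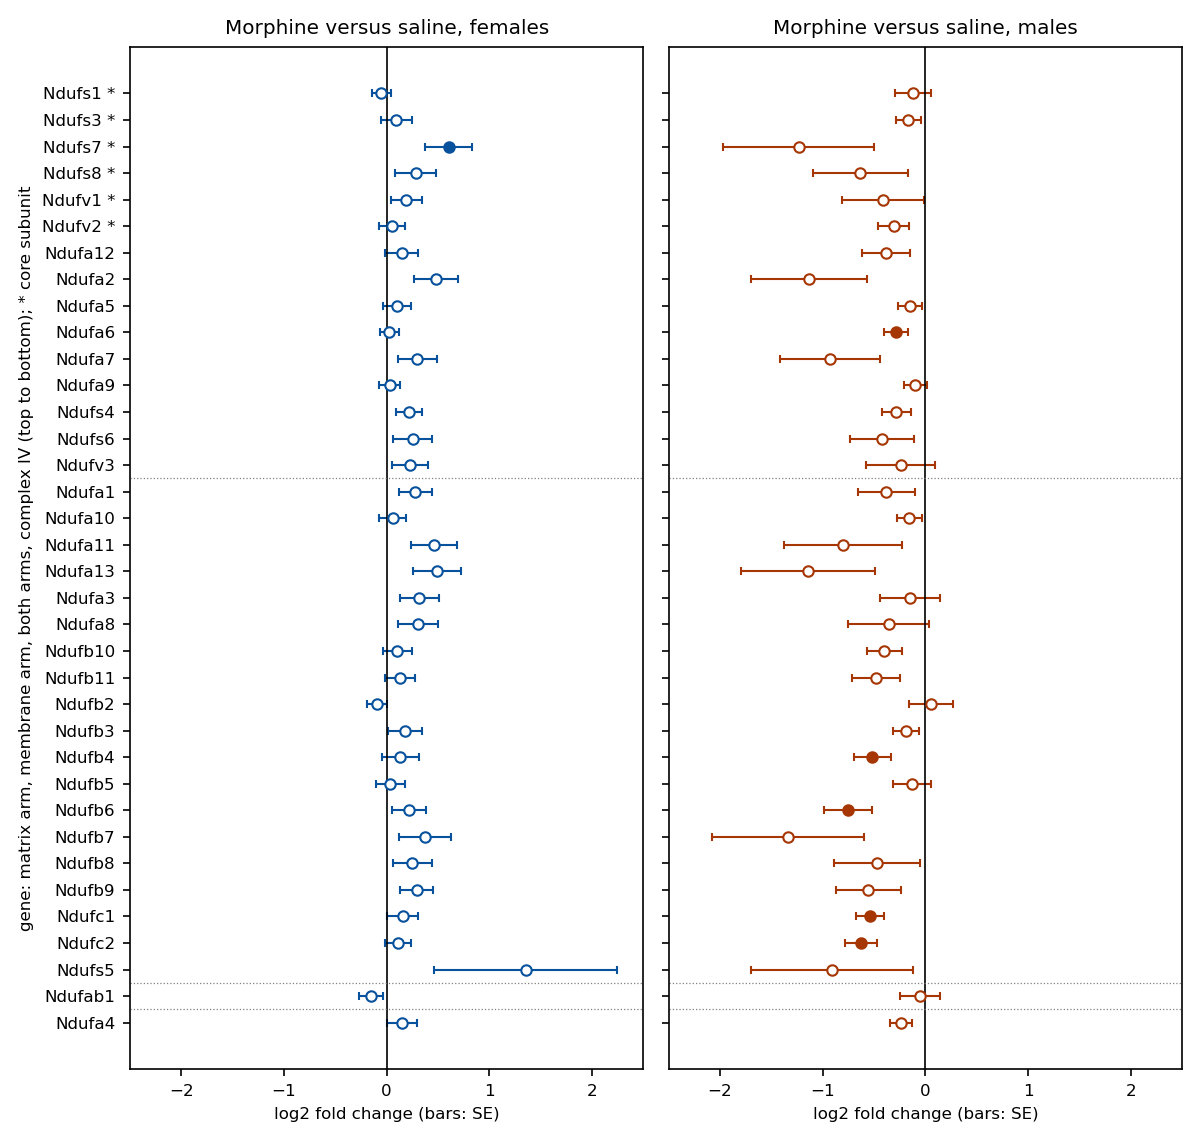
Log2 fold change of morphine against saline for 36 of the genes in females (left) and males (right), with the SE as bars, ordered by arm of the complex with core subunits marked by an asterisk. Filled points are genes called at an unadjusted p under 0.05 and a change beyond 0.26: Ndufs7 in females, and Ndufc2, Ndufc1, Ndufb6, Ndufb4 and Ndufa6 in males.

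In females the same comparison gave 1 called gene, the core subunit Ndufs7, which was higher after morphine. Over all 18109 genes tested, 0.928% were called higher. Ndufs7 was read at 16.1, 11.7 and 8.33 CPM in saline females and at 21.5, 13.8 and 19.8 CPM in morphine females. The groups overlapped, and the log2 fold change was 0.60 (SE 0.23, adjusted p = 1.00). In no gene of the family did the female groups fail to overlap, where 2.9% of all genes were higher and 2.77% lower without overlap.

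Of the 37 changes in females, 34 were above 0, against 48.2% of all genes, with a median of 0.18 against -0.01. The 3 below 0 were Ndufab1, Ndufb2 and Ndufs1. The largest were those of Ndufs5, given above, and, among genes whose counts no copy shares to a like degree, Ndufs7 and Ndufa13, the latter at 0.49 (SE 0.23). Ndufs8 changed by 0.28 (SE 0.20), Ndufv1 by 0.19 (SE 0.15), Ndufs3 by 0.09 (SE 0.15), Ndufv2 by 0.05 (SE 0.13) and Ndufs1 by -0.05 (SE 0.09). The number of calls depended on single mice here as well, with 17 genes called higher without saline female 4 beside 5.62% of all genes, 12 without morphine female 2 beside 2.14%, and 0 without saline female 6 or without morphine female 1. Ndufs7 kept its call under 8 of 9 alternative settings but in only 2 of the 6 fits that left out 1 mouse.

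With both sexes combined and sex as a covariate, no gene of the family was called, against 1.19% of all 18608 genes tested. By edgeR none reached an unadjusted p of 0.05, where 1.32% of all genes had. DESeq2 and edgeR's exact test also called 0. The largest changes were those of Ndufb7 (-0.48, SE 0.49), Ndufa2 (-0.32, SE 0.40) and Ndufa13 (-0.32, SE 0.44), each within its error. The median was -0.10, with 32 of the 37 genes below 0 where 57.4% of all genes were.

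Whether the change after morphine differed between the sexes was tested as an interaction in 1 fit of the 4 groups. The male change lay below the female change by the thresholds for 7 of the 37 genes, against 1.33% of all 19027 genes tested, and above it for none. Of the 37 differences 35 were below 0, where 54.4% of all genes were, with a median of -0.59 against -0.03. The 7 were Ndufc2 (-0.72, SE 0.21), Ndufc1 (-0.68, SE 0.22), Ndufb6 (-0.96, SE 0.31), Ndufb4 (-0.63, SE 0.23), Ndufs4 (-0.48, SE 0.19), Ndufa2 (-1.60, SE 0.66) and Ndufs7 (-1.82, SE 0.83). Each had an adjusted p of 0.985. Among the 3 largest differences, those of Ndufs5 (-2.24, SE 1.41) and Ndufb7 (-1.70, SE 0.85) were not called. Without saline male 3 the count was 24, beside 18.4% of all genes called lower. It was 14 without saline female 4 (4.89% of all genes called in either direction, against 2.94% with all mice), 14 without morphine female 2 (4.41%) and 11 without the library labelled morphine male 6 (3.39%). It was 4 without saline male 1, saline female 6, morphine female 3, morphine male 4 or morphine male 5, where 1.49% to 1.86% of all genes were called. Of the 12 fits that left out 1 mouse, Ndufs7 and Ndufa2 each kept the call in 4 and Ndufs4 in 6. Ndufc2, Ndufc1, Ndufb6 and Ndufb4 kept it in all 12.

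Ndufs4, an accessory subunit that secures the NADH-binding end of the matrix arm, was called in the interaction but in neither sex alone. It was read at 91.0, 81.8 and 78.7 CPM in saline females and at 106.4, 79.5 and 108.0 CPM in morphine females. In males it was read at 99.3, 79.5 and 98.9 CPM after saline and at 74.8, 75.6 and 81.8 CPM after morphine. Both sexes overlapped between treatments. Ndufa2, a small thioredoxin-like subunit of the matrix arm, was read at 59.2, 58.3 and 11.5 CPM in saline males and at 16.5, 17.9 and 25.3 CPM in morphine males, the same split of saline male 3 from its group as in the GC-rich genes.

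The saline mice alone differed between the sexes. In saline males against saline females 9 of the 37 genes were called higher and none lower, against 6.3% of all genes called higher, with adjusted p = 0.639 for each. They were Ndufa2 (1.44), Ndufs7 (1.81), Ndufb6 (0.66), Ndufb7 (1.82), Ndufa7 (1.19), Ndufa13 (1.57), Ndufa11 (1.28), Ndufc2 (0.37) and Ndufb9 (0.64), all as log2 differences. Of the 37 differences 31 were above 0, where 47% of all genes were. All but Ndufb6 and Ndufc2 of the called genes belong to the GC-rich 19. Without saline male 3 the counts were 23 higher and 4 lower, where 36.7% of all genes were called in either direction. The count was 18 higher without saline female 4, where 9.88% of all genes were called in either direction against 7.62% with all mice. It was 5 without saline male 1 (2.37% of all genes) and 3 without saline male 2 (1.75%).

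In morphine males against morphine females 3 of the 37 genes were called lower, against 1.05% of all genes. They were Ndufc1 (-0.38, SE 0.16), Ndufs4 (-0.34, SE 0.14) and Ndufc2 (-0.35, SE 0.15), each with an adjusted p of 1.00. The groups did not overlap for Ndufc1, Ndufc2, Ndufb4 and Ndufv2, all lower in males, where 7.11% of all genes were lower without overlap. The count was 7 without morphine female 2, where 3.94% of all genes were called in either direction against 2.68% with all mice. It was 2 without the library labelled morphine male 6 (2.51%), 1 without morphine female 1 (2.49%), and 0 without morphine female 3, morphine male 4 or morphine male 5 (1.62% to 2.1%). These comparisons share mice with those above. Saline males were also above saline females without overlap for Ndufc1, Ndufb4 and Ndufa6, where 1.42% of all genes were.

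Other genes of the complex were read beside the nuclear subunits. The complex I assembly factors, which build the complex without staying in it, had 16 measured members of 17 listed. In males 2 of them were called lower, Ndufaf2 (-0.51, SE 0.15) and the distal-arm factor Dmac1 (-0.57, SE 0.17), and none higher, with a median of -0.21. Over all genes tested, 1.07% were called lower in males. Ndufaf2 was read at 23.9, 22.5 and 22.5 CPM in saline males and at 15.3, 15.9 and 18.02 CPM in morphine males, which did not overlap. In females and in both sexes combined none was called. Ndufaf2 and Dmac1 were also called in males without saline male 3. In that setting 5 assembly factors were called lower in males, beside 18.8% of all genes, and 2 in both sexes combined, beside 1.88%. Both were also called without the library labelled morphine male 6, where 2 factors were, beside 2.47% of all genes in either direction. The interaction was called for Dmac1 (-0.56, SE 0.23) and Ndufaf2 (-0.52, SE 0.23), and saline males exceeded saline females for Dmac1 (0.40, SE 0.16) and Ndufaf3 (0.82, SE 0.34). Over all genes, 1.33% were called lower in the interaction and 6.3% higher in saline males. Without the library labelled morphine male 6 the interaction of Dmac1 was no longer called (-0.55, SE 0.26). In the saline mice 4 factors were called higher and 3 lower without saline male 3, beside 24.3% and 12.3% of all genes.

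The complex I subunits encoded by mitochondrial DNA could be tested for 5 of 7 genes, since mt-Nd3 was listed at 0 in all libraries and mt-Nd4l had counts in 1 library. None was called in any comparison with all mice. Their median change was -0.28 in males and -0.01 in females. The male median was -0.03 without saline male 3 and -0.18 without the library labelled morphine male 6. Without saline male 3, 4 of the 5 were called lower in saline males than in saline females, beside 12.3% of all genes. In that setting 3 were called lower in morphine males than in morphine females, beside 2.08%. Their summed level was 16419.6 to 29354 CPM, highest in saline male 3, the library in which the GC-rich nuclear subunits were lowest. It was 19047 and 18967.9 CPM in saline males 1 and 2.

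Of the 4 subunits of complex II, which is wholly encoded in the nucleus and passes electrons from succinate, Sdhd alone was called lower in males (-0.36, SE 0.12), at 131.2, 134.4 and 119.2 CPM in saline males against 104.4, 97.0 and 104.5 CPM in morphine males. Sdhd was also called without saline male 3 (-0.37), where 3 of the 4 were called lower, and without the library labelled morphine male 6 (-0.38). Over all genes in males, 1.07% were called lower with all mice and 18.8% without saline male 3. Of 9 regulators of nuclear respiratory genes, among them Nrf1, Gabpa and Ppargc1a, none was called after morphine in females, in males or in both sexes combined. In saline males against saline females Esrra (1.40, SE 0.44) and Ppargc1b (0.99, SE 0.35) were called higher, beside 6.3% of all genes. Without saline male 3 these values were 1.88 and 1.38. In males without saline male 3, 1 regulator was called higher and 2 lower after morphine, beside 9.85% and 18.8% of all genes.

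Markers of other cell types moved with some of these groups, and their part in the subunit changes was not tested. In bulk tissue, fewer cells of a type and less RNA per cell cannot be told apart. With all mice, 1.92% of all genes were called higher and 1.07% lower after morphine in males. In females 0.884% were called lower, and in both sexes combined 0.607% were called higher and 0.58% lower. In saline males against saline females 6.3% were called higher. Of 5 choroid plexus markers, 4 (Folr1, Clic6, Aqp1 and Kl) were called higher in morphine males than in saline males, and the summed level of the list, with Ttr, ran from 264.0 to 521.2 CPM in saline males, 415.3 to 836.9 in morphine males, 9.95 to 471.4 in saline females and 29.5 to 163.5 in morphine females. The cerebellar granule cell markers Fat2 (0.81, SE 0.17) and Gabra6 (1.35, SE 0.46) were called higher in morphine males, 2 of 4 listed, with summed levels of 51.9 to 61.2 CPM in saline males and 63.8 to 94.2 in morphine males. Of 6 oligodendrocyte markers, Mobp was called lower in males (-0.42, SE 0.18), with a summed level of 38305 to 58756 CPM in saline males and 33652.3 to 42414 in morphine males. Of 5 meningeal fibroblast markers, Dcn was called lower in females (-0.76, SE 0.19) and in both sexes combined (-0.49, SE 0.22). In both sexes combined Gabra6 (0.99) and Fat2 (0.39) were also called higher and the brainstem gene Hoxb4 lower (-0.33). The skeletal muscle genes Acta1, Tnnt3 and Myh1 were called higher in saline males than in saline females, and saline male 2 held the highest value of each, at 10.8, 7.41 and 4.47 CPM. None of the 7 neuronal, 5 astrocyte or 5 microglial markers was called after morphine with all mice. Without saline male 3, in males, 3 neuronal, 2 astrocyte, 2 microglial, 4 oligodendrocyte, 3 red blood cell and 4 skeletal muscle markers were called lower. In that fit 3 choroid plexus and 2 granule cell markers were called higher, and 5 and 3 were without the library labelled morphine male 6. The fit without saline male 3 called 18.8% of all genes lower and 9.85% higher. The fit without the library labelled morphine male 6 called 2.47% in either direction. In both sexes combined, Dcn was not called when saline male 3 or the library labelled morphine male 6 was left out, Gabra6 and Fat2 were not called without saline male 3, and Hoxb4 was not called without the library labelled morphine male 6.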

How the data were processed

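Whole-tissue poly-A RNA from 12 brainstems was sequenced as 100-base single-end reads. The deposited values are raw counts per gene, made by the authors with Trimmomatic, STAR and featureCounts (Subread) on mm10. Versions, strand setting and treatment of reads with several alignments are not given in the sources used here. The submitters' extraction text names spinal cords while the tissue label is brainstem. The study names dam as a covariate, which the labels do not give.

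Counts were fitted over all genes with edgeR 4.0.16 (TMM scaling, filterByExpr, quasi-likelihood test) in R 4.3.3, with limma 3.58.1 and DESeq2 1.42.0 for alternatives. Both sexes were compared with sex as a covariate, each sex in a fit of its own, and the interaction and sex differences in a fit of 4 groups. The thresholds of a call were a p of 0.05 and a log2 change of 0.26 either way, and p-values were adjusted by Benjamini-Hochberg over all genes tested. CPM were TMM-scaled, and log2 CPM used a prior count of 2. Alternatives included exact tests, other scalings, no filter, a minimum of 10 counts in every library, loess offsets for GC content and length (span 0.5), a replicate block and leaving out each mouse. Pseudogene matches were searched at 90% identity over 100 bases. The fits were checked on simulated data.

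The genes, lists and tests were chosen with earlier results of these data known. Named with values are called genes (at most 10 a comparison), the 3 with the largest change in each, the core subunits, the 2 highest and 2 lowest levels per length, and called genes of the other lists. Other names were added after their values were seen. Some genes are not reported here.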

Additional observations from a re-analysis of the deposited data

Results flagged for a closer look

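Among the 6 morphine mice, morphine female 3 had the highest value of 6 genes by a gap that was large for the range of the group. It was read at 203.0 CPM for Ndufa10 (the other 5 mice at 143 to 160 CPM), 62.9 CPM for Ndufa6, 183 CPM for Ndufa9, 154 CPM for Ndufb5, 57.6 CPM for Ndufc1 and 107 CPM for Ndufs3. In all, 74 sets of 6 mice of 1 treatment were examined and 6 stood out, where chance gives about 5% of independent groups. These sets are not independent, since they share their libraries and all 6 flags fell on morphine female 3. The 5% is therefore no yardstick here.

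By the interaction test in edgeR, 7 genes of the family passed the thresholds for a change after morphine that differed between the sexes. Over all 19027 genes tested, 1.33% were called lower. Ndufs7 and Ndufa2 each kept the call in only 4 of the 12 fits that left out 1 mouse, and Ndufs4 in 6. For Ndufs7 and Ndufa2 saline male 3 lay far below saline males 1 and 2. The male change minus the female change was -0.72 for Ndufc2, -0.68 for Ndufc1, -0.96 for Ndufb6, -0.63 for Ndufb4, -0.48 for Ndufs4, -1.60 for Ndufa2 and -1.82 for Ndufs7 on the log2 scale, and none had an adjusted p under 0.05.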

How the results depend on the processing

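The cause of the changes below was not tested. Percentages in parentheses are the share of all genes called in either direction in the same fit. Called genes of the family numbered 1 in females (1.81%), and 3 with edgeR's exact test (2%), 4 with DESeq2 (1.78%), 2 with total-count scaling (1.93%), 0 with the contrast from the fit of 12 mice (1.15%) and 12 with no low-count filter (3.15%), 3 of these with an adjusted p under 0.05. The 12 include Ndufs5, whose counts were split with BC002163. In that fit 77 of 34716 genes had an adjusted p under 0.05, against 0 of 18109 with the filter. In males they numbered 5 (2.99%), and 3 with total-count scaling (4.44%), 10 with no filter (2.83%), 8 with GC content and length offsets (6.91%) and 9 in the fit of 12 mice (4.15%). The interaction gave 7 (2.94%), and 17 with no filter (4.44%) and 11 with the offsets (6.24%). Saline males against females gave 9 (7.62%), and 18 with no filter (8.05%), 3 of these with an adjusted p under 0.05. The 18 also include Ndufs5, and 56 of 37483 genes had an adjusted p under 0.05 in that fit. Morphine males against females gave 3 (2.68%), and 1 with total-count scaling (2.83%).

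The alternatives in this paragraph were chosen after seeing the data. With saline male 3 and morphine male 6 both left out, the counts were 25 in males (41%, median -0.66), 27 in the interaction (30.7%, 26 lower and 1 higher, median -0.88) and 27 in saline mice (37.7%, 23 higher and 4 lower, median 0.60). With the offsets and saline male 3 left out, they were 24 (18.6%), 23 (15.5%) and 23 (17.4%, 22 higher and 1 lower), and 6 in morphine mice (5.49%). Adding pseudogene counts left the number of called genes of the family the same in every comparison.

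Leaving out 1 mouse at a time gave 0 to 2 called genes in both sexes combined (medians -0.18 to -0.01, 0.937% to 2.42%; 1 without saline female 6 and 2 without morphine female 3), 0 to 17 in females (0.08 to 0.31, 1.12% to 7.95%), 2 to 23 in males (-0.57 to -0.23, 1.36% to 28.6%), 4 to 24 in the interaction (-0.78 to -0.40, 1.49% to 24.1%), 3 to 27 in saline mice (0.24 to 0.60, 1.75% to 36.7%) and 0 to 7 in morphine mice (-0.26 to -0.05, 1.62% to 6.08%). With the replicate block in both sexes combined, 0 genes of the family were called (median -0.04) and 204 of all genes, against 221 without it. Whether same-numbered mice were littermates is not known. Each number joins a male and a female, and their deviations from the group means correlated at -0.34 to 0.18. These values cannot decide it, since each group mean rests on 3 mice and the study split litters between saline and morphine. Single genes were followed under alternatives only where they were called or had 1 of the 3 largest changes. Of these 715 values, 593 stayed on their side of the thresholds, 87 lost and 35 gained the call, and 0 reversed. Directions of the other genes did change. In both sexes combined, 20 of the 37 genes were below 0 without saline male 1 and 36 without saline female 6. In females, 22 were above 0 without morphine female 3 and 35 without morphine female 2.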
